A study of Mus musculus with 11 samples.

Results

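Pericyte and smooth muscle genes are described here in the RPE/choroid of the mouse eye, across naive control and laser treated animals. The 9 genes were taken by symbol from a table of 14602 genes and all 9 were present in it. They fall into 6 genes of the contractile apparatus (Acta2, Myh11, Tagln, Cnn1, Des and Myl9) and 3 genes by which pericytes are commonly recognised (Pdgfrb, Rgs5 and Cspg4).

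The libraries came from C57BL/6J mice that were all 12 months old when the tissue was taken. The laser treated group (n = 5 libraries) had received the 2RT nanosecond laser at 9 months of age, 3 months before collection, and the naive control group (n = 6 libraries), labelled age matched control, had received no treatment. The study applied the laser to 1 eye, removed the neural retina from the posterior eye cup and lysed what remained, so RNA of the RPE, the choroid and any tissue attached to them entered each library. The labels do not say whether any animal gave more than 1 library, and give no sex, so p-values measure the spread between these libraries.

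The choroid is a dense vascular bed behind the RPE, with arterioles wrapped in smooth muscle and capillaries that carry pericytes. Smooth muscle cells contract through actin and myosin filaments that are regulated by phosphorylation of the myosin light chain, and serum response factor switches on many of these genes through CArG boxes in their promoters. Pericytes share part of this apparatus, and depend on the PDGF-B that endothelial cells release and that the receptor encoded by Pdgfrb binds.

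Promoter sequence is shown for the contractile genes in which a CArG box or a near match to it was found. RefSeq promoter windows of GRCm38.p6 were found for 6 of the 9 genes (Acta2, Cnn1, Des, Myl9, Rgs5 and Cspg4), and the 250 bases before the start of each were searched. A CArG box, which reads the same way on both strands as a motif, occurred in 1.47% of all 32851 windows, and a box or a near match with 1 G or C in the core of 6 bases occurred in 8.59%. In the lines below, capitals mark these matches, and each run is printed 5′ to 3′ on the strand of the gene. Each run ends at the base before the RefSeq start, which can differ from the start in the GENCODE M21 annotation.
Acta2 (chr19:34255374-34255623, minus strand): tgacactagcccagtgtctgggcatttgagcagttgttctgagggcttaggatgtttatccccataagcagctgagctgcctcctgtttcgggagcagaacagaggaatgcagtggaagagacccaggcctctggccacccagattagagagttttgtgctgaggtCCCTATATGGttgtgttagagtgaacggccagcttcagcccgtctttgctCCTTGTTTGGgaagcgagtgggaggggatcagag
Myl9 (chr2:156775214-156775463, plus strand): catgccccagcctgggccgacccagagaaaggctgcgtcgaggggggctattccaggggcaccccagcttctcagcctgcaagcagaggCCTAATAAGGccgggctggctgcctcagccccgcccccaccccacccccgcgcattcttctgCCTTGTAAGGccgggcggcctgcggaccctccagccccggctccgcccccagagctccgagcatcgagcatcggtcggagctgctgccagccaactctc

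The Acta2 window held 2 near matches, at −84 to −75 and at −34 to −25 from the RefSeq start. GENCODE M21 places the start of Acta2 farther upstream, at chr19:34255590, so by that annotation both matches lie inside the gene. Assembled Acta2 transcripts covered both matches in every library. The Myl9 window held 1 CArG box at −161 to −152 and 1 near match at −99 to −90. The windows of Cnn1, Des, Rgs5 and Cspg4 held neither form in these 250 bases.

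The libraries were sequenced to 25700881 to 36766020 counts in the naive control group and 32094560 to 38755994 in the laser treated group. RPE was the main source of signal, with 12 RPE markers (led by Rgr, a retinal opsin) summing to 93180 to 129504 counts per 1000000 (CPM, after TMM scaling) in control and 75400 to 124738 in laser treated libraries. Markers of other cells were present in every library: 9 neural retina markers summed to 3023 to 10418 and 1909 to 9882 CPM, 12 endothelial markers, led by Plvap, to 134 to 373 and 220 to 625 CPM, and 10 fibroblast markers, led by Dcn, to 94.7 to 536 and 108 to 491 CPM. Macrophage markers (8, led by Csf1r) summed to 235 to 459 and 317 to 538 CPM, and 4 blood markers, led by Hba-a1, to 45.7 to 299 and 36.5 to 151 CPM. Naive control 3 had the highest neural retina sum and the lowest fibroblast, endothelial, skeletal muscle and macrophage sums. A label of unstated meaning in the transcript files, R1 or R2, splits both groups: R1 holds 3 control and 2 laser treated libraries, and R2 holds 3 of each.

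None of the 9 genes passed the test between laser treated and naive control libraries. The quasi-likelihood test of edgeR was used, and of all 14602 genes 0% passed at an adjusted p under 0.05 (Benjamini-Hochberg over all genes). By limma voom 0 of the 9 and 1 of all genes (0.00685%) passed. DESeq2 called 502 of the 7512 genes for which it gave an adjusted p (6.68%), which held only Acta2 and Des of the 9, and it called neither. At an unadjusted p under 0.05, 0 of the 9 and 15.9% of all genes passed (8.24% higher and 7.68% lower in laser treated libraries), and the groups did not overlap for 0 of the 9 and 2.26% of all genes. Fold changes were above 0 for 8 of the 9 genes, against 48.5% of all genes, with a median log2 fold change of 0.51 beside −0.02 over all genes. The 6 contractile genes had values from 0.25 to 2.30 and a median of 0.58, whereas the 3 pericyte genes lay between −0.04 and 0.18, with a median of 0.12. The lowest adjusted p among the 9 was 0.437, for Acta2. In bulk RNA, fewer cells of a type and less RNA per cell cannot be told apart.

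**Figure D1:**
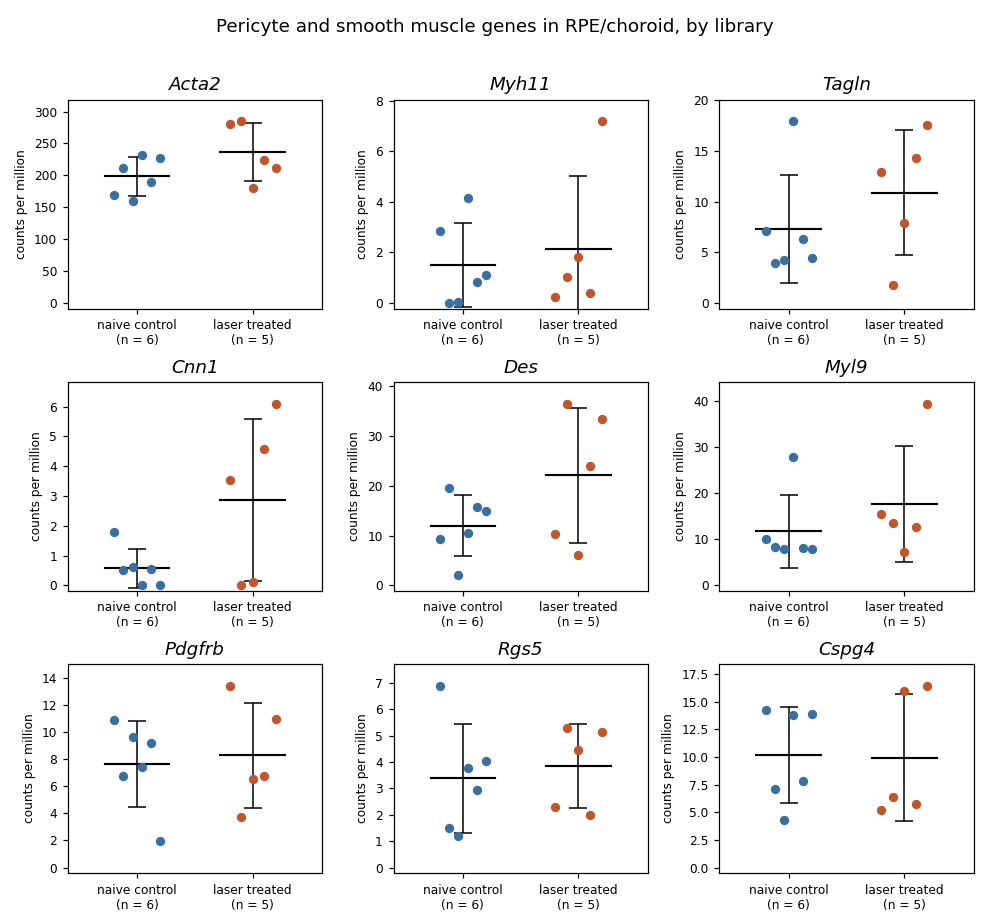
CPM (linear axis) of each gene in the 6 naive control (blue) and 5 laser treated (orange) libraries, 1 point a library, with the group mean and SD as bars that are cut at the foot of the axis where they run below 0. The groups overlapped for all 9 genes, and the highest points of Myh11, Myl9 and Tagln belong to laser treated 5 or naive control 4.

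Acta2 (ENSMUSG00000035783, chr19:34241090-34255590) encodes smooth muscle α-actin, the main actin of the vascular smooth muscle filament. It was by far the most abundant of the 9 genes. Control libraries ranged from 161 to 232 CPM, with a median of 200.4, and laser treated libraries 1 to 5 had 280.0, 285, 180, 225 and 212 CPM. Laser treated 1 and 2 lay above every control, and the other 3 lay within the control range. The log2 fold change was 0.25 ± 0.15 (SE), with a 95% interval from −0.06 to 0.57, an interval that excludes a fold above 1.48 (edgeR, adjusted p = 0.437). Within the label R1 the difference of mean log2 CPM was 0.66, and within R2 it was −0.08, so the direction was not shared by both labels. Actin genes are close copies, but only 7 of the 1986 stretches of 50 bases in the longest Acta2 transcript recurred in another gene's transcript (among them Actg1).

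Myh11 (ENSMUSG00000018830, chr16:14194535-14291372) encodes the smooth muscle myosin heavy chain, the motor by which mature smooth muscle is most strictly recognised. Read counts were low: control libraries 1 to 6 had 100, 0, 1, 138, 31 and 37 counts and laser treated libraries 1 to 5 had 8, 38, 64, 14 and 239 counts. The library with no count allows up to 0.122 CPM (3 counts, counting error only). The highest library was laser treated 5 at 7.18 CPM, and the other 4 laser treated libraries lay at 0.259 to 1.83 CPM, inside the control range of 0 to 4.15 CPM. Its log2 fold change was 0.51 ± 1.21 (SE; adjusted p = 0.894, edgeR), and it turned to −0.76 without laser treated 5.

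Tagln and Cnn1 encode transgelin and calponin, actin-binding proteins of differentiated smooth muscle. Tagln (ENSMUSG00000032085, chr9:45929619-45936058) had 3.98 to 17.9 CPM in control libraries, with a median of 5.41, and 12.9, 1.82, 7.88, 14.3 and 17.6 CPM in laser treated libraries 1 to 5. Laser treated 1, 3, 4 and 5 lay above 5 of the 6 controls, while naive control 4 was the highest of all libraries and laser treated 2 the lowest. The log2 fold change of Tagln was 0.57 ± 0.53 (SE; adjusted p = 0.667, edgeR), or 1.06 without naive control 4 and 0.33 without laser treated 5. The difference of mean log2 CPM of Tagln was −0.01 within R1 and 0.65 within R2. On the linear scale its R1 mean was 7.37 CPM in laser treated and 5.09 CPM in control libraries. The antisense gene Gm48529 covers 62.4% of the Tagln exon bases on the opposite strand and exons of Pcsk7 cover 5.43%, and the library kit does not mark strand, so reads from these genes and Tagln cannot be told apart.

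Cnn1 (ENSMUSG00000001349, chr9:22099216-22109630) had the highest fold change and one of the widest spreads. Control libraries 1 to 6 had 63, 13, 19, 0, 20 and 0 counts and laser treated libraries 1 to 5 had 109, 0, 4, 160 and 203 counts. Laser treated 1, 4 and 5, at 3.53 to 6.10 CPM, exceeded the highest control at 1.78 CPM, whereas laser treated 2 and 3 were at or near 0. The libraries with no count allow up to 0.0815 to 0.0907 CPM. With a log2 fold change of 2.30 ± 1.43 (SE) and an interval from −0.77 to 5.37 (adjusted p = 0.471, edgeR), the estimate stayed between 1.82 and 3.08 when any 1 library was left out, but was 1.02 with limma voom. Within R1 the difference of mean log2 CPM was −0.95, and within R2 it was 3.72. The R1 value rests on laser treated 1 and 2, with 109 and 0 counts. On the linear scale the R1 mean was higher in laser treated than in control libraries (1.76 against 0.975 CPM).

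Des (ENSMUSG00000026208, chr1:75360329-75368579) encodes desmin, the intermediate filament of smooth, skeletal and cardiac muscle and of many pericytes. Control libraries ranged from 2.00 to 19.5 CPM, with a median of 12.7, and laser treated libraries 1 to 5 had 10.4, 36.5, 6.19, 24.0 and 33.5 CPM. Laser treated 2, 4 and 5 lay above every control, and laser treated 1 and 3 lay in the lower part of the control range. Laser treated over control, Des had a log2 fold change of 0.88 ± 0.52 (SE; adjusted p = 0.44, edgeR). The spread of Des within groups was at percentile 97.2 among genes of like level (mean log2 CPM within 0.5).

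Desmin followed the skeletal muscle genes from library to library. Summed over 14 skeletal muscle markers, led by Acta1 (skeletal α-actin), control libraries had 70.6 to 669 CPM and laser treated libraries 1 to 5 had 349, 943, 78.4, 626 and 995 CPM. With group means subtracted, the log2 CPM of Des and of this sum had a Pearson r of 0.96 (permutation p = 5e-05) and a Spearman coefficient of 0.94 (permutation p = 0.00011) over 11 libraries. Without the 2 libraries farthest from the median of Des, r was 0.91, and within the 6 libraries labelled R2 it was 0.98, while R1 holds 5 libraries, too few for a value. Of 153 such relations computed between the 9 genes and between them and 13 list sums, this was the only one with an adjusted p under 0.05 for both r (0.00765) and the Spearman coefficient (0.0168). The sum was itself higher in laser treated libraries for 13 of the 14 markers, none of them at an unadjusted p under 0.05, and the part of skeletal muscle RNA in the Des difference was not tested. Des also had an r of 0.79 with the macrophage sum and 0.79 with the fibroblast sum (permutation test, adjusted p = 0.093 and 0.0965), which dropped to 0.53 and 0.29 without the 2 libraries farthest from its median. Acta2 had an r of 0.65 with the skeletal muscle sum (permutation p = 0.026, adjusted p = 0.209; Spearman coefficient 0.40, permutation p = 0.225), and 0.41 without the 2 libraries farthest from its median.

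**Figure D2:**
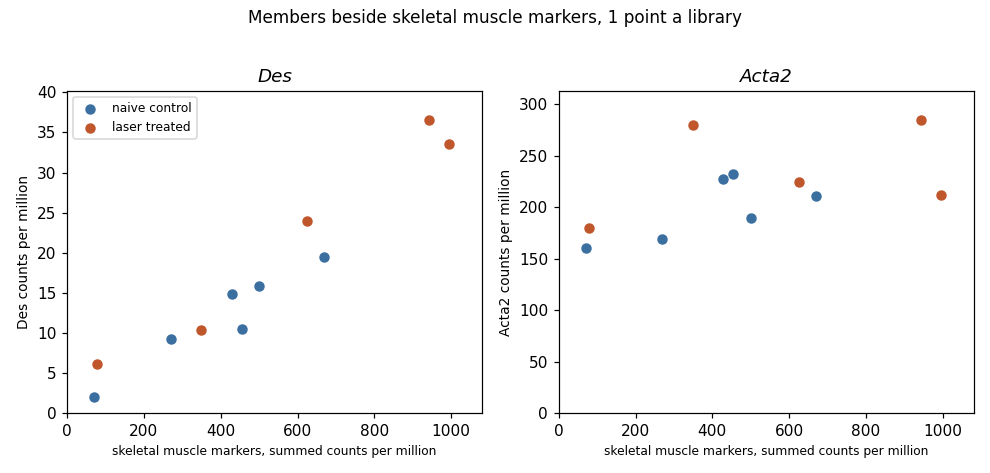
Des (left) and Acta2 (right) in CPM against the summed CPM of 14 skeletal muscle markers, 1 point a library, blue for naive control and orange for laser treated, linear axes. Des ran from 2.00 CPM at a sum of 70.6 to 36.5 CPM at a sum of 943, while Acta2 lay between 161 and 285 CPM over the same range.

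Myl9 (ENSMUSG00000067818, chr2:156775420-156781658) encodes the regulatory light chain of smooth muscle myosin, the target of myosin light chain kinase. Control libraries ranged from 7.78 to 27.9 CPM, with a median of 8.25, and laser treated libraries 1 to 5 had 15.4, 13.6, 7.22, 12.7 and 39.4 CPM. Naive control 4 and laser treated 5 stood far above their groups, laser treated 1, 2 and 4 lay between naive control 4 and the 5 other controls, and laser treated 3 was the lowest of all. The log2 fold change was 0.59 ± 0.45 (SE; adjusted p = 0.578, edgeR). It was 0.06 without laser treated 5 and 1.06 without naive control 4, the lowest and highest values with 1 library left out.

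The pericyte genes differed little between the group means. Pdgfrb (ENSMUSG00000024620), the PDGF receptor β through which pericytes are recruited to vessels, had 1.96 to 10.9 CPM in control libraries, with a median of 8.31, and 13.4, 3.75, 6.51, 6.79 and 11.0 CPM in laser treated libraries 1 to 5. Laser treated 1 lay above the highest control, laser treated 5 just above it, and the other 3 lay inside the control range, in which naive control 6 was the lowest. The log2 fold change was 0.12 ± 0.43 (SE; 95% interval −0.80 to 1.03; adjusted p = 0.933, edgeR), and it turned below 0 without naive control 6 (−0.10), laser treated 1 (−0.12) or laser treated 5 (−0.00). The differences within labels were −0.32 in R1 and 0.61 in R2.

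Cspg4 (ENSMUSG00000032911, chr9:56865033-56899870) encodes NG2, a cell surface proteoglycan of pericytes and of oligodendrocyte precursors. It had 4.26 to 14.3 CPM in control libraries, with a median of 10.8, and 5.21, 6.33, 16.0, 5.73 and 16.4 CPM in laser treated libraries 1 to 5. Laser treated 3 and 5 were the highest of all libraries and the other 3 lay low in the control range. Its log2 fold change was −0.04 ± 0.42 (SE; 95% interval −0.93 to 0.86; adjusted p = 0.98, edgeR), and it took either sign as single libraries were left out, from −0.29 without laser treated 5 to 0.13 without laser treated 1. Its differences within labels were −0.39 in R1 and 0.0021 in R2.

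Rgs5 (ENSMUSG00000026678, chr1:169655501-169695813) encodes a regulator of G protein signalling that is high in pericytes. It had 1.20 to 6.88 CPM in control libraries, with a median of 3.34, and 2.30, 5.30, 4.45, 1.98 and 5.14 CPM in laser treated libraries 1 to 5. All laser treated libraries lay inside the control range. Its log2 fold change was 0.18 ± 0.52 (SE; 95% interval −0.95 to 1.30; adjusted p = 0.916, edgeR), from −0.01 without naive control 3 to 0.51 without naive control 1.

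**Figure D3:**
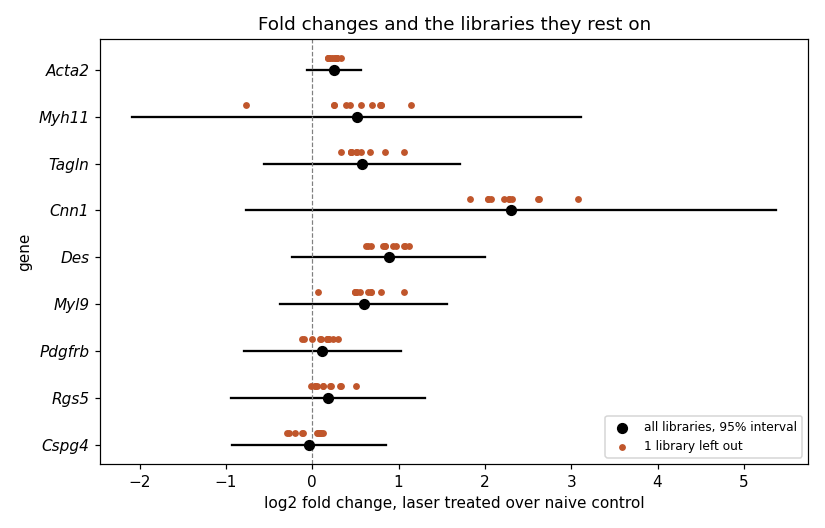
Log2 fold change of laser treated over naive control libraries for each gene (black point) with its 95% interval from edgeR (black line), and the values when 1 of the 11 libraries was left out (orange points, drawn just above). Every interval includes 0, and the orange points of Myh11, Pdgfrb, Rgs5 and Cspg4 fall on both sides of 0.

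Levels between genes were compared per length, as CPM divided by the annotated exon length in kilobases (RPKM). The mean over the 11 libraries was 98.2 RPKM for Acta2, 12.4 for Myl9, 4.51 for Tagln, 4.42 for Des, 1.45 for Pdgfrb, 0.844 for Cspg4, 0.789 for Rgs5, 0.591 for Cnn1 and 0.235 for Myh11. The place of Rgs5 rests on its counts, and its assembled transcripts, described below, gave a different view. Acta2 exceeded Myl9, and Myl9 exceeded Tagln, in 11 of 11 libraries. Tagln and Des were not separated, with Tagln higher in 6 of 11 libraries, and of the 4 lowest genes each exceeded the next in 7 or 8 of 11. Acta2 had the lowest SD of log2 CPM within groups of the 9, at 0.25. Among genes of like level, this spread was at percentile 52.8 for Acta2, at 41.0 for Rgs5, and at 86.2 to 86.6 for Tagln, Cnn1 and Myl9.

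The 9 genes did not vary together across libraries as 1 group. With group means subtracted, the median Pearson r of log2 CPM over 11 libraries was 0.26 for the 15 pairs of contractile genes, and −0.09 for Acta2 with the other 8. The highest pairs joined Myh11, Rgs5 and Cspg4. Myh11 with Rgs5 had an r of 0.88 (permutation p = 0.00047, adjusted p = 0.036) and a Spearman coefficient of 0.76 (permutation p = 0.00833, adjusted p = 0.26), with r at 0.79 without the 2 libraries farthest from the median of Myh11 and 0.84 within R2. Myh11 with Cspg4 had an r of 0.84 (permutation p = 0.00185, adjusted p = 0.0708) and Rgs5 with Cspg4 one of 0.79 (permutation p = 0.00611, adjusted p = 0.0965). Pdgfrb, the other pericyte gene, had an r of −0.22 with Rgs5 and −0.17 with Cspg4, and its highest value was with Cnn1, at 0.73 (permutation p = 0.00694, adjusted p = 0.0965). Among the list sums, Acta2 had an r of −0.78 with that of 20 further pericyte genes (permutation p = 0.00648, adjusted p = 0.0965). This value was −0.80 without the 2 libraries farthest from the median of Acta2. The sum was led by Vtn, at a mean of 248 CPM beside a control median of 378 CPM for the whole sum. Naive control 1 and 3 and laser treated 3 and 4 had the highest values of this sum, at 597, 602, 480 and 572 CPM. These libraries also had the highest neural retina sums, at 8935, 10418, 8816 and 9882 CPM. No other library exceeded 383 CPM for the pericyte sum or 4650 CPM for the neural retina sum. Acta2 had an r of −0.73 with the neural retina sum and 0.73 with the macrophage sum (permutation test, adjusted p = 0.145 and 0.131). With the smooth muscle transcription factors its r was −0.73 (adjusted p = 0.14, permutation test), or −0.91 without the 2 libraries farthest from its median. Mef2c led that sum, at a mean of 53.0 CPM beside a control median of 135 CPM for the whole. The sum was highest in naive control 1 and 3, at 173 and 176 CPM. For Acta2, r was 0.71 with the cardiac muscle sum, 0.68 with the PDGF sum and 0.63 with the RPE sum (permutation test, adjusted p = 0.145, 0.145 and 0.229). Pdgfrb had an r of −0.76 with the macrophage sum (permutation p = 0.0062, adjusted p = 0.0965), or −0.36 without the 2 libraries farthest from its median. The part of these cells in the values of Acta2 and Pdgfrb was not tested. Counts of Myh11 and Cnn1 were sparse, and all libraries share the pre-amplification step.

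**Figure D4:**
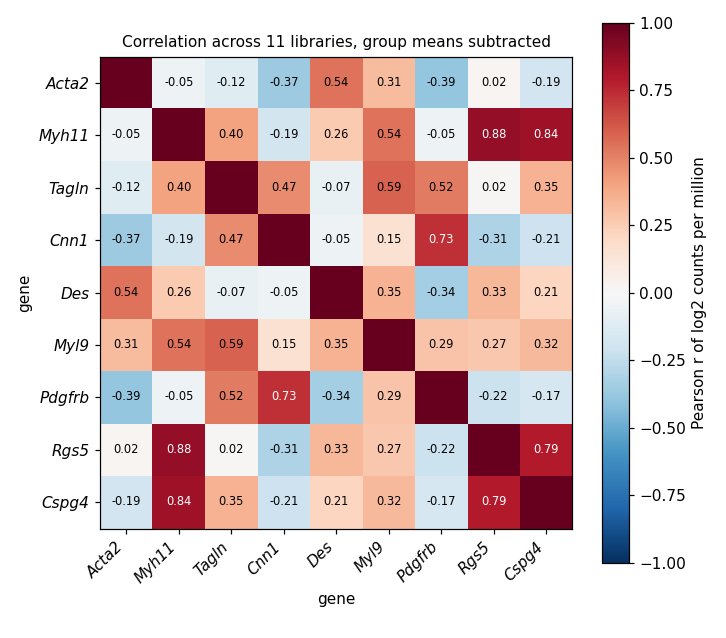
Pearson r between the log2 CPM of each pair of genes across 11 libraries with the mean of each group subtracted, from −1 (blue) to 1 (red). Myh11, Rgs5 and Cspg4 form the reddest block, at 0.79 to 0.88, and the row of Acta2 holds values from −0.39 to 0.54.

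Genes outside the 9 that varied most like them were ranked by r with the mean z-score of each group over the 11 libraries, with group means subtracted. For the contractile genes these were Ddr2 (0.96), a collagen receptor, Serping1 (0.92), an inhibitor of the first complement component, Arid5a (0.91), Lama5 (0.91), a laminin chain of basement membranes, and Ube2l6 (0.90). For the pericyte genes they were Gm20033 (0.91), Samd4 (0.88), Mir5102 (0.87), Casp12 (0.87) and Cldn5 (0.87), the last a tight junction protein of endothelium. These are the highest of 14602 genes over few libraries and are given as a description.

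The wider pathway was read from 4 lists of 70 genes, of which 63 were in the table. Among the 63, 32 had a log2 fold change above 0, the median was 0.00, and 7 had an unadjusted p under 0.05, or 11.1% against 15.9% of all genes. No gene of these lists passed the adjusted test with edgeR. The groups did not overlap for 1 of the 63, Csrp1, against 2.26% of all genes.

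Of 27 genes of contraction and cytoskeleton, 16 had values above 0 and 11 below. Those with an unadjusted p under 0.05 were Smtn, a cytoskeletal protein of contractile smooth muscle (log2 fold change 0.81, adjusted p = 0.214), Csrp1, a LIM protein that binds actin regulators (0.52, adjusted p = 0.172), and Rock1, the kinase that inhibits myosin phosphatase (−0.65, adjusted p = 0.172; edgeR for each). Csrp1 had 109 to 169 CPM in control and 182 to 228 CPM in laser treated libraries. The leiomodin Lmod1 had a log2 fold change of 0.33, myosin light chain kinase Mylk −0.00, and the non-muscle light chains Myl12a 0.08 and Myl12b −0.13 (edgeR, adjusted p from 0.522 for Lmod1 to 0.997 for Mylk). Actg2, the enteric actin, was not in the table.

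Of 11 transcription factors of smooth muscle, 4 had values above 0 and 7 below. Srf, which binds the CArG box, had 11.0 ± 3.69 CPM (SD, n = 6) in control libraries, against 18.4 ± 6.42 CPM (SD, n = 5) after laser, a log2 fold change of 0.75 (adjusted p = 0.251, edgeR). Its cofactor Myocd was not in the table.

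Of 20 further pericyte genes, 7 had values above 0 and 13 below, with a median of −0.36. At an unadjusted p under 0.05, 2 of the 20 were lower, Gucy1a3 and Rgs4, against 7.68% of all genes, and 0 were higher. Gucy1a3, a subunit of the nitric oxide receptor guanylate cyclase, had 40.9 ± 19.0 CPM (SD, n = 6) in control libraries, against 17.1 ± 3.28 CPM (SD, n = 5) after laser, a log2 fold change of −1.26 (adjusted p = 0.172, edgeR). Rgs4, a relative of Rgs5, had a log2 fold change of −1.73 (adjusted p = 0.197, edgeR). Abcc9 and Kcnj8, the subunits of the vascular KATP channel, had values of −2.30 (adjusted p = 0.315) and −0.11 (adjusted p = 0.902), and the Notch receptor Notch3 had 0.43 (adjusted p = 0.867, edgeR for each).

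All 5 PDGF ligands and receptors besides Pdgfrb had values above 0, against 48.5% of all genes, from 0.0047 for Pdgfd to 1.51 for Pdgfb. Of the 5, 1 was higher at an unadjusted p under 0.05, as were 8.24% of all genes. Pdgfb, the ligand of the receptor on pericytes, had 1.29 ± 1.11 CPM (SD, n = 6) in control libraries, against 3.68 ± 1.84 CPM (SD, n = 5) after laser, a log2 fold change of 1.51 (adjusted p = 0.303, edgeR). Pdgfra, the receptor of fibroblasts, had a log2 fold change of 0.78 (adjusted p = 0.607, edgeR).

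Markers of glial and pigment cells were also set beside the 9 genes. The sum of 5 melanocyte and Schwann cell markers, led by Sox10 over all libraries, was 150.0 to 442 CPM in control and 291 to 786 CPM in laser treated libraries. Of the 5, 2 were higher in laser treated libraries at an unadjusted p under 0.05, as were 8.24% of all genes. These 2 were Sox10 and Mbp (log2 fold change 0.62 and 2.22, adjusted p = 0.172 and 0.208, edgeR). Mean CPM in control and laser treated libraries was 132 and 203 for Sox10, and 59.0 and 275 for Mbp. The other 3 had log2 fold changes of −1.46 (Prx), −0.27 (A330049M08Rik) and 0.0054 (Mlana, a pigment cell marker). With group means subtracted this sum had an r of 0.81 with Myl9 and 0.77 with Tagln (permutation p = 0.00184 and 0.00429, adjusted p = 0.0708 and 0.0965), and Spearman coefficients of 0.75 and 0.73 (adjusted p = 0.26 for both), so neither relation passed the adjustment. Its part in the differences of Myl9 and Tagln was not tested. Of 5 cardiac muscle markers only Actc1 was in the table, at a sum of 0.143 to 7.06 CPM over all libraries.

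The transcripts assembled for each library gave a second view of the 9 genes, and for Rgs5 a different one. Assembled bases (coverage times length over the exons of a gene, on either strand) were divided by the counted reads of the same gene. Over 10998 genes with a mean count of at least 50 the median was 98.6 bases per counted read, with 5th and 95th percentiles of 32.1 and 236. Acta2, Tagln, Des, Myl9, Pdgfrb and Cspg4 had 33.9 to 126 bases per counted read. Rgs5 had 1971, with only 27 of the 10998 genes above it, and between 1200 and 6805 in every library. In total, Rgs5 had 32.4 to 108 assembled bases per 1000000 assembled in the library, against 42.8 to 108 for Acta2, although the counts put it far below. These totals are not divided by length, and the exons of Rgs5 hold 4546 bases against 2196 for Acta2. Acta2 was itself low in assembled bases per counted read, at percentile 5.68 of the 10998 genes. The totals therefore do not show that the 2 genes were equally abundant.

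The assembled transcripts at Rgs5 lay at its 3′ end. All 26 of them had over 99% of their bases in the last of its 6 exons (chr1:169692179-169695813, 3635 bases, of which 159 are coding), and none was placed on the 5 earlier exons, which are 62 to 450 bases long. All transcripts of these files have 1 exon. In each of the 11 libraries 1 of them was assigned to the opposite strand, with 24.9% to 95.4% of the assembled bases and a median of 79.5%, although the kit does not mark strand and no annotated gene was found there on that strand. Between the groups, assembled bases of Rgs5 differed by a log2 value of −0.00 on the log2(value per 1000000 + 1) scale (limma, adjusted p = 0.999), so neither measure separated the groups. What makes the count and the assembly differ was not tested.

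**Figure D5:**
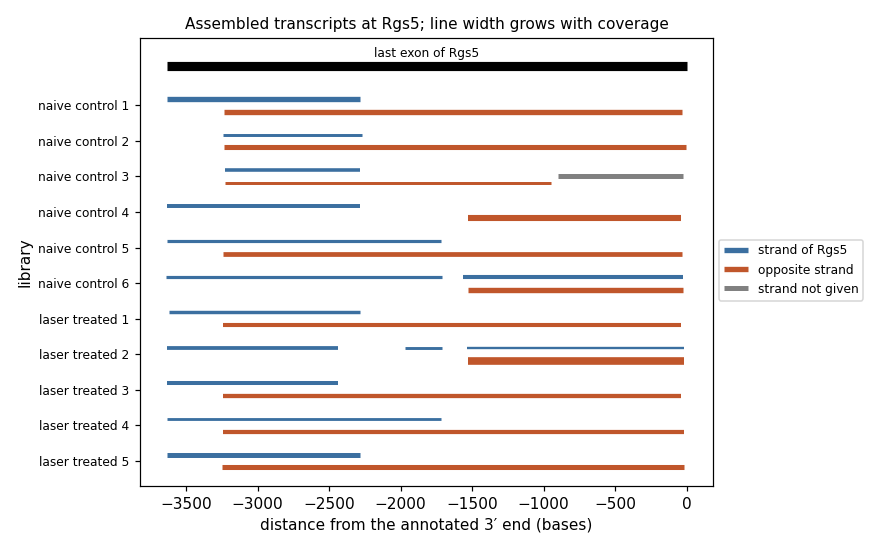
Assembled transcripts at the last exon of Rgs5 in each library, placed by distance in bases from the annotated 3′ end, blue on the strand of Rgs5, orange on the opposite strand and grey where no strand was given, with wider lines for higher coverage. Each of the 11 libraries has an orange line within the last exon of 3635 bases.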

How the data were processed

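RPE/choroid RNA was measured in 6 naive control and 5 laser treated libraries. Per the submitters' processing notes the tools included bcl2fastq 2.18.0.12, Trim Galore, STAR 2.5.3a, featureCounts 1.5.3, StringTie 1.3.3 and edgeR 3.22.3 with mm10/GRCm38, with no role given for each, and the annotation is not given in the sources used here. The authors deposited raw counts per gene, without normalization, for 14602 genes. In the same table the authors deposited a log2 fold change, a log2 average abundance, an F score, a p-value and an FDR of their own comparison, and none of these was used. The authors also deposited the assembled transcripts of each library with coverage, FPKM and TPM. The total of each library and the standard error beside each fold change give the precision.

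Positions on GRCm38 came from GENCODE M21, by Ensembl identifier for 13045, by older symbol for 1197, by symbol for 10 and not at all for 350. Counts were fitted with edgeR 4.0.16 in R 4.3.3 (TMM, filterByExpr, which removed 0 genes, robust quasi-likelihood fit, no covariate), adjusted by Benjamini-Hochberg over all genes at 0.05. RPKM used merged exon length in units of 1000 bases. Log2 CPM for correlations had a prior count of 2. Correlations used 100000 permutations over libraries, two-sided, in 1 family of 153, and these p-values were added to a plan that gave correlations as descriptions only. The scripts were tested on simulated data. Python 3.11.15 with pandas 2.3.3, numpy 2.4.6, scipy 1.17.1 and matplotlib 3.10.9 was used.

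The genes, lists and tests were chosen with earlier results of these data known. Named beside the 9 genes are those of the 4 pathway lists with an unadjusted p under 0.05 or close to a member in role, the most abundant gene of each cell type list, and the 5 genes most like each group. Alternatives were DESeq2 1.42.0, limma 3.58.1 with voom, other scalings and filters, GC trend removal, replicate number or file label as a term, TPM with a pseudocount of 1, an exact permutation test over 462 splits, and each library left out. Some genes of the cell type lists are not reported here. Fellow eyes and quantitative PCR are not analysed here.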

Additional observations from a re-analysis of the deposited data

Results flagged for a closer look

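Single libraries stood far from their group by Dixon's criterion at the 95% level in 10 of 36 groups of values examined. Chance flags about 1 in 20 where values are normal and groups independent. These groups are not independent, since each gene was examined in CPM and again in assembled bases of the same reads. All flags came from naive control 1, naive control 4 and laser treated 5. In CPM, laser treated 5 had 7.18 for Myh11, with the other 4 at 0.259 to 1.83, and 39.4 for Myl9, with the other 4 at 7.22 to 15.4. Naive control 4 had 17.9 for Tagln, with the other 5 at 3.98 to 7.08, and 27.9 for Myl9, with the other 5 at 7.78 to 10.1. Naive control 1 had 1.78 for Cnn1, with the other 5 at 0 to 0.614.

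The same libraries stood apart in assembled bases per 1000000, made from the same reads. Laser treated 5 had 3.22 for Myh11 and 41.6 for Myl9, naive control 4 had 11.0 for Tagln and 27.0 for Myl9, and naive control 1 had 1.32 for Cnn1.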

How the results depend on the processing

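No adjusted p of the 9 genes was under 0.05 under any alternative, but DESeq2 gave one for 2 of them only and the filter of at least 10 counts left 7. Over all genes the count was 0 with edgeR, 502 with DESeq2, 1 with limma voom, 2 with at least 10 counts in every library (11901 genes left), and 0 to 4 when 1 library was left out, the 4 without laser treated 2; the cause was not tested. At an unadjusted p under 0.05, 0 of the 9 passed, and 0 to 2 when 1 library was left out: Tagln and Myl9 without naive control 4 (2207 of all 14537 genes passed), and Acta2 and Des without laser treated 3 (1959 of 14602). With GC trend removal 828 genes passed at an unadjusted p under 0.05 against 2325.

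The replicate numbers of the titles were tried as pairs. Deviations of same-numbered libraries correlated at −0.01 to 0.28, above 0.1 in 2 of 5 pairs. Of the 5 laser treated libraries, 2 were closest to their own number. So few pairs cannot show whether same-numbered libraries share more than a number. With the replicate block 0 genes had an adjusted p under 0.05 in edgeR, and 1 member had an unadjusted one, as also with GC trend removed, beside 2542 and 1231 of all genes. This was Des (log2 fold change 0.99, edgeR adjusted p = 0.164). The block turned Pdgfrb to −0.19 and Cspg4 to 0.0016, and with GC trend removed Pdgfrb was −0.030, or −0.38 with the block too. The block gave 0.89 for Cnn1 (0.97 with GC trend removed) and 1.96 for Myh11.

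The direction of Acta2, Tagln, Cnn1, Des and Myl9 was the same under all alternatives fitted. The differences of mean log2 CPM within labels took the other sign for Acta2 in R2 and for Tagln and Cnn1 in R1. For Tagln and Cnn1 the R1 means of CPM were still higher in laser treated libraries. Cspg4 was 0.027 with limma voom and −0.32 with GC trend removed, and Rgs5 was 0.53 with GC trend removed and 0.80 with the block too. Tagln was 1.24 from TPM (limma, adjusted p = 0.337, with an unadjusted p under 0.05). Rgs5 was −0.19 from TPM and −0.0013 from assembled bases, a unit chosen after seeing the data. With 1 library left out, log2 fold changes ran from −0.76 to 1.15 for Myh11, −0.12 to 0.30 for Pdgfrb, −0.010 to 0.51 for Rgs5 and −0.29 to 0.13 for Cspg4. Low counts limit Myh11 and Cnn1.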
